A study of Mus musculus with 2 samples.

Results

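Cluster 8 of the deposited cell table was the cluster of the mouse corneal epithelium with the highest levels of mitotic genes, beside a cycling cluster, 11, whose cells were mostly called S phase. The members were all cells that the authors' own clustering had numbered 8, with no threshold added, and they came to 1867 of 28867 cells, 535 from unwounded corneas (UW) and 1332 from wounded corneas (W). The cells were named mitotic epithelial cells from 5 markers of dividing cells, *Top2a*, *Mki67*, *Ube2c*, *Cenpf* and *Birc5*, and from the keratins they carried. Those genes had been among the data on which the cells were clustered, so their levels describe the cluster and test nothing.

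The corneal epithelium is renewed from its basal layer and from stem cells of the limbus, the ring where cornea meets conjunctiva, and dividing basal cells replace those shed at the surface. After a scrape, cells at the edge migrate over the bare area first and proliferation behind the edge refills the layer. A dividing cell copies its DNA in S phase, accumulates cyclin B and mitotic kinases through G2, condenses and separates its chromosomes in M, and then lets the anaphase-promoting complex (APC/C) degrade the cyclins. Messenger RNAs for these steps are made in waves, the replication genes first and the spindle, kinetochore and APC/C genes later.

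Each library pooled the dissociated corneas of 4 mice, so there was 1 library per condition and neither a replicate nor a test. UW corneas were normal, and W corneas were taken 24 h after the epithelium had been wounded by a scrape. The wounding method of the study used pentobarbital sodium and procaine hydrochloride for anaesthesia, sodium fluorescein to stain the wound and ofloxacin against infection. These agents are not stated for UW mice, so the scrape and the agents cannot be told apart. The mice were males 6 to 8 weeks old, with no transgene stated for these libraries, and the strain is not given in the sources used here. Both groups shared the dissociation, an overnight dispase step followed by trypsin for the epithelial sheet and collagenase for the rest. The cluster 8 cells summed to 12795601 UMIs (unique molecular identifiers, 1 per captured RNA molecule) in UW and 48710571 in W, with a median of 24704 and 35499 UMIs and of 4727 and 5469.5 genes per cell. Levels are given as CPM, counts per 1000000 UMIs of the summed cells, and intervals are exact 95% counting intervals, which cover counting error only and not the spread between mice. Free RNA from broken cells enters every droplet, so values in stromal cells (cluster 0, 2369 UW and 1719 W cells, a median of 11853 and 17588 UMIs) are set beside those of genes that stroma should lack. In these data 52 cell barcodes occurred in both libraries, none of them in cluster 8.

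Epithelial markers were present in every cell of the cluster, and markers of most other cell types were low. Each cluster 8 cell drew at least 79.0 of every 10000 UMIs from *Krt5*, *Krt14*, *Krt12*, *Epcam* and *Cdh1*, the epithelial markers, and the medians were 258 in UW and 254 in W. The leukocyte marker *Ptprc* was at 0.234 CPM in UW and 0.657 in W, and the summed T cell, vascular, melanocyte and Schwann cell markers were at 3.59 CPM or less in either library. The 5 myeloid markers summed to 12.5 CPM in UW and 649 in W. Of these, *S100a8* and *S100a9*, which activated keratinocytes also make, held most of the sum in W, while *Tyrobp* was at 0.313 and 3.82 CPM and *Itgam* at 2.97 and 2.03. The 4 stromal markers (*Kera*, *Lum*, *Dcn* and *Col1a1*) summed to 522 CPM in UW and 256 in W, all lower in W, against 65768 and 34152 in stromal cells and 276 and 316 in cluster 3, the basal epithelium. Only 9 UW and 3 W cells reached 30 stromal UMIs per 10000, and only 1 UW and 16 W cells had 3 or more UMIs of the immune genes *Ptprc*, *Tyrobp* and *Itgam*. A first doublet run of the authors had marked 28 UW and 58 W cells of the cluster, which stayed in the deposited table.

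Promoters of 7 mitotic genes are shown because the genes divide by their W over UW ratio. *Mki67* and *Cenpf* were over 2-fold lower in W, *Top2a* was just short of that, and *Ube2c*, *Birc5*, *Plk1* and *Cdc20* lay within 0.5 log2 units of no change. Each stretch covers 118 bases, from 120 to 3 bases before the RefSeq start on GRCm38.p6, read 5′ to 3′ along the gene. Capitals mark 2 motifs that are known from cell cycle promoters, TTTGAA (the core of the cell cycle homology region, CHR) and CCAAT (the box bound by NF-Y), on either strand (TTCAAA and ATTGG in reverse), and no match overlaps another in the stretches shown (elsewhere a forward and a reverse CCAAT can share bases).
Top2a: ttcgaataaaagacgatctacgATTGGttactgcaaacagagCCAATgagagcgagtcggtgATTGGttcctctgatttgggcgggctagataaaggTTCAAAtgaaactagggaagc
Mki67: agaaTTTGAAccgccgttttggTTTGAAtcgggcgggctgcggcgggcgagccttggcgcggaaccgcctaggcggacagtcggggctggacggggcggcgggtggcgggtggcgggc
Ube2c: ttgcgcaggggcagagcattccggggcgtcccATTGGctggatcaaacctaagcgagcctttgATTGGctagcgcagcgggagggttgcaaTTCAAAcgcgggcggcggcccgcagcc
Cenpf: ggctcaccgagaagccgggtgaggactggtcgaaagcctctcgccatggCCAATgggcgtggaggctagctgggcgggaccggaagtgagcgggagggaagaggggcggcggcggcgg
Birc5: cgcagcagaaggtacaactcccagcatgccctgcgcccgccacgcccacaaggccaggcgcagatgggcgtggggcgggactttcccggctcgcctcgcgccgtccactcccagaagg
Plk1: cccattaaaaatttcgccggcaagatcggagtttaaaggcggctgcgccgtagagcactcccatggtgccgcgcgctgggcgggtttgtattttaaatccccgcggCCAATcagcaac
Cdc20: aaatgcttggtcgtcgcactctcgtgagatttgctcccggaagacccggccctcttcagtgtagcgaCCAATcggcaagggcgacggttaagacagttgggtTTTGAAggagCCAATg
The stretches lie at chr11:99024192-99024309 (minus strand, *Top2a*), chr7:135716382-135716499 (minus, *Mki67*), chr2:164769809-164769926 (plus, *Ube2c*), chr1:189688089-189688206 (minus, *Cenpf*), chr11:117849117-117849234 (plus, *Birc5*), chr7:122159315-122159432 (plus, *Plk1*) and chr4:118437346-118437463 (minus, *Cdc20*). In the stretches shown, TTTGAA or its reverse stood at *Top2a*, *Mki67*, *Ube2c* and *Cdc20*, and CCAAT or its reverse at *Top2a*, *Ube2c*, *Cenpf*, *Plk1* and *Cdc20*. Neither motif stood in the 250 bases before the *Birc5* start. Promoters were listed for 75 of the 93 mitotic genes measured below, and of those 27 (36.0%) held TTTGAA, 49 (65.3%) CCAAT and 23 (30.7%) both within 250 bases, against 16.0%, 33.8% and 5.55% of all 32851 promoters listed. With 1 promoter for each of 5955 counted genes, the shares were 10.3%, 36.6% and 4.06%. The 28 DNA replication genes with a promoter held CCAAT at a like share (64.3%) and TTTGAA in 10.7%. *Mki67*, among the lower genes in W, and *Cdc20*, the highest of the 7, both held TTTGAA.

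The 5 markers were 151 to 222 times as high in cluster 8 as in the other epithelial cells of UW, and 8.72 to 22.5 times as high in W. *Top2a*, the topoisomerase that untangles DNA for chromosome separation (chromosome 11, 98992943 to 99024189), was at 536 CPM (95% interval 523 to 549) in UW and 279 (275 to 284) in W, against 3.5 and 12.4 in the other epithelial cells. The proliferation marker *Mki67*, which coats mitotic chromosomes (chromosome 7, 135689784 to 135716361), was at 504 and 183 CPM. For *Cenpf*, a kinetochore protein (chromosome 1, 189640606 to 189688086), the levels were 387 and 126 CPM. *Ube2c*, the ubiquitin-conjugating enzyme of APC/C (chromosome 2, 164769898 to 164778822), was at 471 and 352 CPM, and *Birc5*, which encodes survivin of the chromosomal passenger complex (chromosome 11, 117849251 to 117855743), at 291 and 265 CPM. In stromal cells, which give the background of free RNA and of their own few dividing cells, *Ube2c* was at 2.43 CPM in UW and 9.18 in W and *Birc5* at 1.69 and 7.61.

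**Figure D1:**
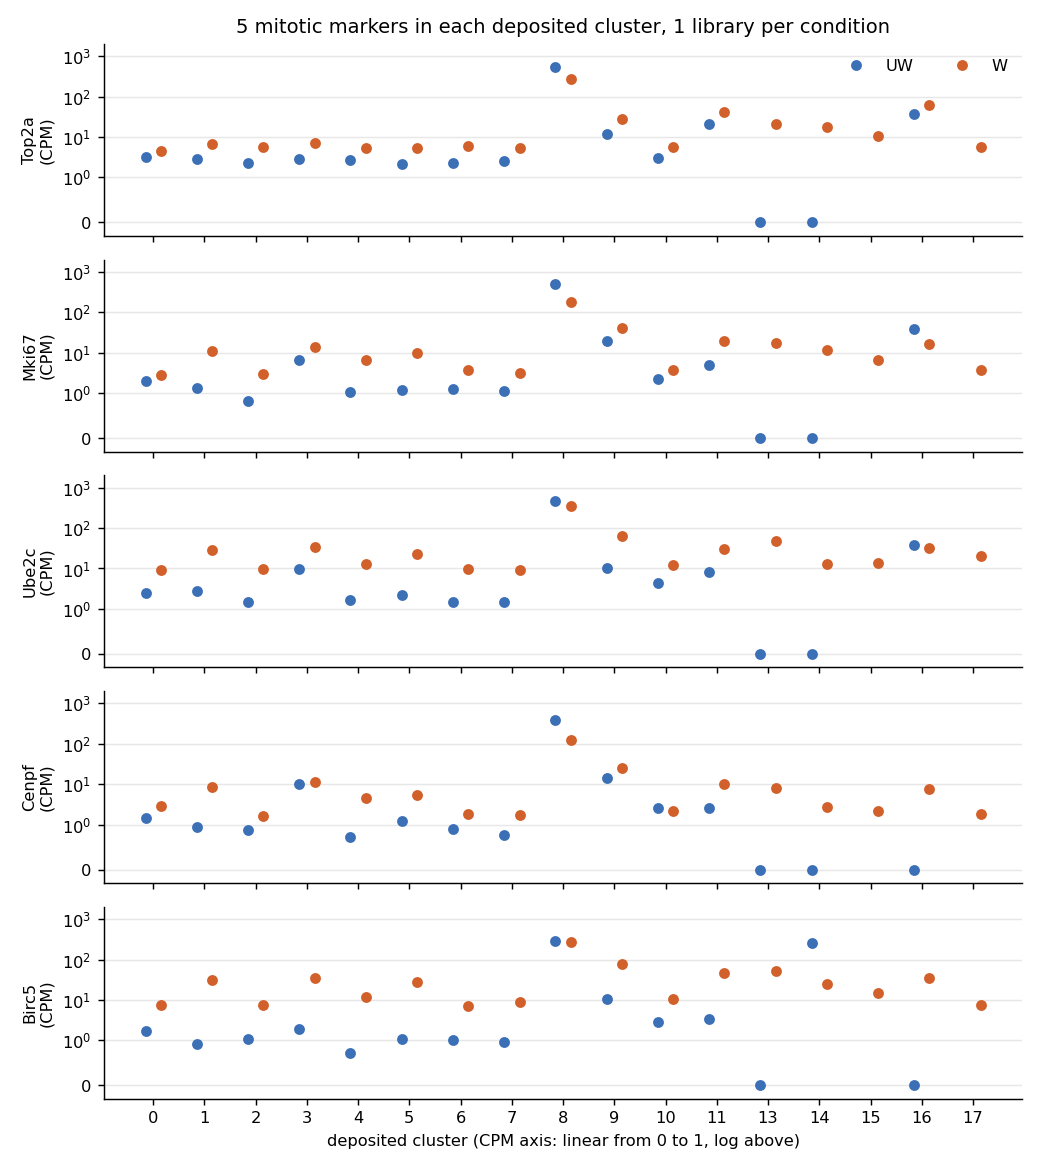
CPM of the 5 markers (y, linear from 0 to 1 and logarithmic above) in every deposited cluster (x), with 1 point for the UW library and 1 for the W library. Cluster 8 stands above all others for each marker in both libraries, with *Birc5* in the 7 UW cells of cluster 14 nearest to it (260 CPM against 291), and within cluster 8 the W point lies below the UW point while in most other clusters it lies above.

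By fold over the other epithelial cells, with the cells of both libraries summed, the leading genes at 50 CPM or more were *Nusap1*, *Kif11*, *Knl1*, *Esco2*, *Aurkb*, *Top2a*, *Plk1*, *Pbk*, *Kif15* and *Hmmr*, from 88.0-fold to 41.8-fold. The sum is uneven, as 71.3% of cluster 8 cells were from W, and the folds of these 10 genes were 153 to 398 within UW and 16.7 to 38.1 within W. *Nusap1* led in W at 38.1-fold, and *Plk1* led in UW at 398-fold, before *Nusap1* at 332-fold. Among them *Nusap1*, *Kif11*, *Kif15* and *Hmmr* act on spindle microtubules, *Knl1* builds the kinetochore, *Esco2* acetylates cohesin in S phase, and *Aurkb* and *Plk1* are mitotic kinases. *Cenpf*, *Mki67* and *Ube2c* followed at ranks 11, 12 and 17.

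Cluster 8 made up a larger share of the wounded corneas. Cluster 8 was 3.25% (95% interval 2.99 to 3.53) of the cells of the UW library and 10.7% (10.2 to 11.3) of the W library, and 3.96% (3.64 to 4.31) and 15.7% (14.9 to 16.4) of the epithelial cells. Together with cluster 11 the shares were 6.97% (6.59 to 7.37) of the UW library and 15.3% (14.6 to 15.9) of the W library. To count dividing cells by marker UMIs in place of cluster 8, every cell of the epithelial clusters was thinned at random to 5000 UMIs. This left out 25 UW and 19 W cells of cluster 8 that had fewer. At least 5 UMIs of the 5 markers were then found in 2.41% of UW and 9.06% of W epithelial cells. Most such cells were in cluster 8, which held 95.3% of them in UW and 90.9% in W. The largest group outside it was cluster 9, with 8 cells in UW and 50 in W. With pooled corneas, more dividing cells and fewer other epithelial cells left after the scrape cannot be told apart from these shares.

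Summed over the 5 markers, levels per cell were lower and more even in W. The 5 markers together gave a median of 7 UMIs per thinned cell in UW, with the 5th and 95th percentiles at 0 and 30, while in W the median was 5 and those percentiles were 1 and 14. At least 5 marker UMIs were found in 59.0% of the UW and 52.2% of the W cells of the cluster. *Top2a* had a UMI in 63.3% of UW and 55.1% of W cells after thinning (77.2% and 78.3% with all UMIs), *Mki67* in 74.5% and 52.1% (89.3% and 90.9%), and *Cenpf* in 57.8% and 38.2% (74.4% and 81.3%). In thinned stromal cells the shares for these 3 genes were at most 2.31%. The other 2 markers, *Ube2c* and *Birc5*, had a median of 1 UMI per thinned cell in both libraries. The 95th percentile of *Ube2c* was 9 in UW and 6 in W, and that of *Birc5* was 4 in both.

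Each cell was next called G1, S or G2/M from its scores for 43 S and 54 G2/M genes after thinning. In UW, 39 of 510 cells were called G1 (7.65%, 95% interval 5.49 to 10.3), 190 S (37.3%, 33.0 to 41.6) and 281 G2/M (55.1%, 50.7 to 59.5). In W, 14 of 1313 were called G1 (1.07%, 0.584 to 1.78), 395 S (30.1%, 27.6 to 32.6) and 904 G2/M (68.9%, 66.3 to 71.3). The calls are ranges of a score, and 45 UW and 156 W cells lay within 0.05 of the border between S and G2/M. The other cycling cluster, 11, was called S for 90.7% of UW and 95.1% of W cells. Taken with it, the dividing cells in G2/M were 25.3% of 1110 cells in UW and 49.1% of 1869 in W. Both libraries thus held a mix of S and G2/M cells under the name mitotic. *Ube2c* in stromal cells, a measure of free RNA, was also higher in W (2.43 and 9.18 CPM), and the part of free RNA in the phase calls was not tested.

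**Figure D2:**
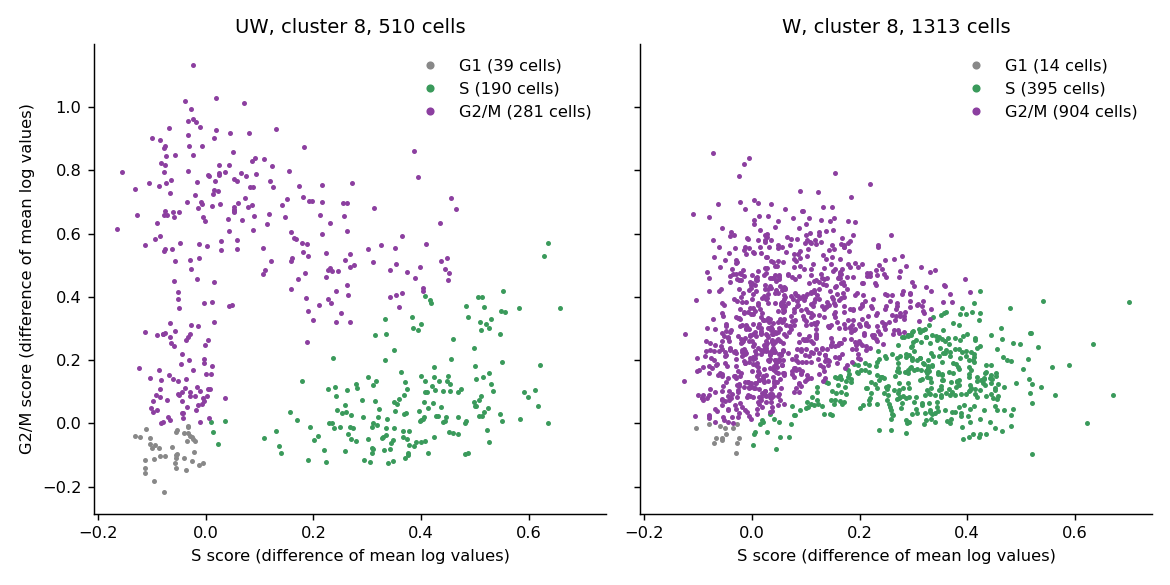
S score (x) and G2/M score (y) of each thinned cluster 8 cell, UW on the left and W on the right, coloured by the called phase. In UW the S cells lie low on the G2/M axis and the G2/M cells reach scores above 1, with a gap between them, while in W the cells form 1 field whose scores lie closer together.

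On the genes that made the calls, the called phases lay closer together in W. The 54 G2/M genes gave a median of 17 UMIs in S cells and 62 in G2/M cells of UW, and 26 and 42 in those of W. The 5th and 95th percentiles of that sum over all cells were 8 and 99.6 in UW and 17 and 69.0 in W. The 43 S genes gave a median of 24 UMIs in S cells and 6 in G2/M cells of UW, and 21 and 7 in W. As the phases were called from these same genes, the sums by phase describe the calls and test nothing. Pairs of mitotic genes also went together less from cell to cell in W. Across thinned cells Spearman's rho of *Top2a* and *Mki67* was 0.53 in 510 UW cells and 0.22 in 1313 W cells, and that of *Ube2c* and *Birc5* was 0.50 and 0.17. These correlations are descriptions, as the cells of each library share that library, the depth is fixed at 5000 UMIs and most cells hold few UMIs of each gene.

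Between the libraries, 408 of the 7521 genes at a mean of 10 CPM or more in cluster 8 were at least 2-fold higher in W (5.42%) and 550 were at least 2-fold lower (7.31%), with a median log2 ratio over all of them of -0.07. The ratios carry no test. Counts of list members given below are to be set beside these shares of all counted genes, 5.42% higher and 7.31% lower. Scaling by TMM factors moved every log2 ratio up by 0.11 and turned the calls to 532 higher and 413 lower, so that 56.3% of the calls were higher in W in place of 42.6%. Reads of near-identical copies can be split by the counting, so values of *Hspa1a* and *Hspa1b*, the histone genes, *Krt6a* and *Krt6b*, *Krt14*, *Krt16* and *Krt17*, *H2-Q7* and *Stfa1* are uncertain.

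**Figure D3:**
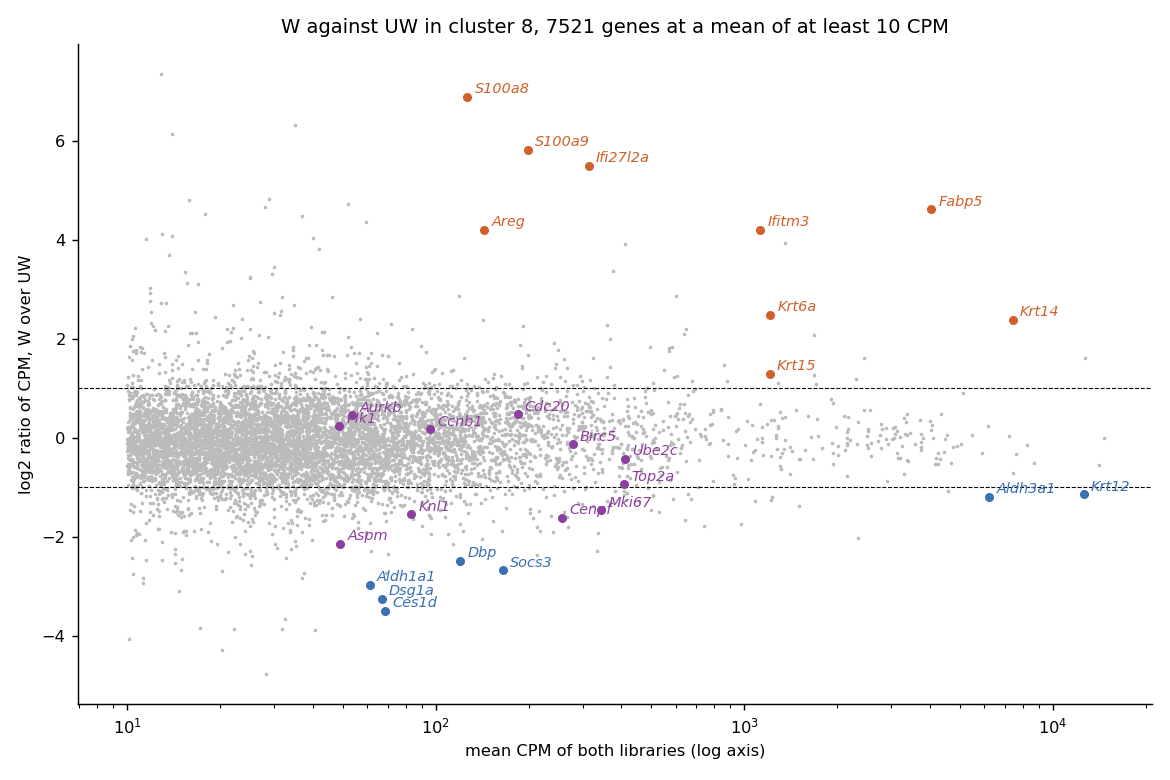
Log2 ratio of CPM, W over UW (y), against the mean CPM of both libraries (x, logarithmic) for the 7521 genes counted in cluster 8, with dashed lines at 2-fold either way. Labelled mitotic genes (purple) lie at or below 0.5, *S100a8*, *Fabp5* and *Krt14* (orange) are among the genes higher in W, and *Ces1d*, *Dsg1a* and *Krt12* (blue) among those lower.

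Mitotic genes stood mostly below 0, and few were 2-fold apart. Of the 93 counted genes of the 4 mitotic lists, 0 were at least 2-fold higher in W (5.42% of all counted genes) and 10 at least 2-fold lower (7.31% of all), so that the share 2-fold apart was near that of all counted genes (12.7%), while 25 were above and 68 below a log2 ratio of 0, and the median was -0.42. Summed, the lists held 15602 CPM in UW and 13310 in W.

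The 16 genes of mitotic entry, the kinases and cyclins that start mitosis, had a median of -0.11, and none was 2-fold apart. *Cdk1*, the kinase that drives mitosis, was at 198 CPM in UW and 187 in W, and its partner cyclin B1, *Ccnb1*, at 89.8 and 101. *Aurka*, the centrosome kinase, was at 29 and 36.7 CPM (log2 ratio 0.34, 95% interval 0.18 to 0.51), *Plk1* at 44.8 and 52.6, and *Foxm1*, the transcription factor of the late wave, at 28.8 and 26.3. Over all cells the median of the entry genes was -0.00 under TMM scaling, and in G2/M cells alone it was -0.54. *Aurka* had a ratio of -0.03 in G2/M cells and of 2.19 in S cells, so its direction turned in the G2/M cells.

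The 34 spindle and kinetochore genes had a median of -0.62, with 28 below 0, 6 above 0 and 4 at least 2-fold lower (7.31% of all counted genes). *Cenpf* had a log2 ratio of -1.62 (-1.67 to -1.57). *Knl1* was at 124 CPM in UW and 42.5 in W (-1.54), the kinetochore motor *Cenpe* at 166 and 73.1 (-1.19), and the microtubule polymerase *Ckap5* at 128 and 56.4 (-1.18). *Kif11*, the motor that pushes spindle poles apart, was at 116 and 58.4 CPM, and *Nusap1* at 132 and 78.7. Each of these 6 named genes was higher in UW by more than its counting interval. Among the genes above 0 the highest ratio was that of *Ska3*, at 0.77.

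The 16 chromosome structure genes had a median of -0.56, and *Mki67* (-1.47, -1.51 to -1.42) and the condensin subunit *Ncapd2* (74.5 and 35.2 CPM, -1.08) were at least 2-fold lower. *Top2a* had a ratio of -0.94 (-0.98 to -0.90), and the condensin subunits *Smc4* and *Smc2* of -0.75 and -0.44. Of the 16 genes 4 were above 0, the highest *Hmgb3* at 0.38. The 27 genes of mitotic exit and cytokinesis had a median of -0.13 and both directions among their members. *Aspm*, a spindle pole protein, was at 79.9 CPM in UW and 18.1 in W (-2.14, -2.28 to -2.01), the lowest ratio of the mitotic lists. The importin *Kpna2* (-1.30), separase *Espl1* (-1.14) and the midbody motor *Kif14* (-1.12) were also at least 2-fold lower. At the other end *Cdc20*, the APC/C activator, was at 154 and 214 CPM (0.47, 0.40 to 0.54), and *Aurkb*, the passenger complex kinase, at 45.3 and 62 (0.45).

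Several of the genes that stood lowest encode long transcripts, and the ratio went with transcript length in each of the 4 clusters compared. Over the 7470 counted genes with an annotated length, Spearman's rho of the longest transcript and the log2 ratio was -0.47 in cluster 8, -0.36 in cluster 3, -0.44 in cluster 11 and -0.35 in stromal cells, across genes, which are no replicates. In cluster 8 the median log2 ratio was 0.40 for 938 genes of up to 1500 bases, 0.19 for those over 1500 and up to 3000, -0.13 for those over 3000 and up to 5000, -0.45 for those over 5000 and up to 8000 and -0.63 for 465 genes over 8000 bases. In stromal cells the same classes went from 0.20 to -0.39. Mitotic genes followed this order and stood lower than all counted genes in each of the 5 classes, with medians of -0.08 for 33 genes over 1500 and up to 3000 bases, -0.48 for 40 up to 5000, -0.95 for 11 up to 8000 and -1.47 for 5 over 8000, all 5 of them below 0. *Cenpf* (11130 bases), *Mki67* (10061) and *Aspm* (9867) were among those 5. Set against the median of their length class, *Cenpf* was at -0.99, *Mki67* at -0.84, *Aspm* at -1.52, *Knl1* at -1.10, *Top2a* at -0.49, *Ube2c* at -0.60 and *Birc5* at -0.01, and 6 mitotic genes in place of 10 were at least 2-fold lower. Of the 10, only *Aspm*, *Knl1* and *Kpna2* were among those 6, and the other 7 came within 2-fold. The part of transcript length in the ratios was not tested further.

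**Figure D4:**
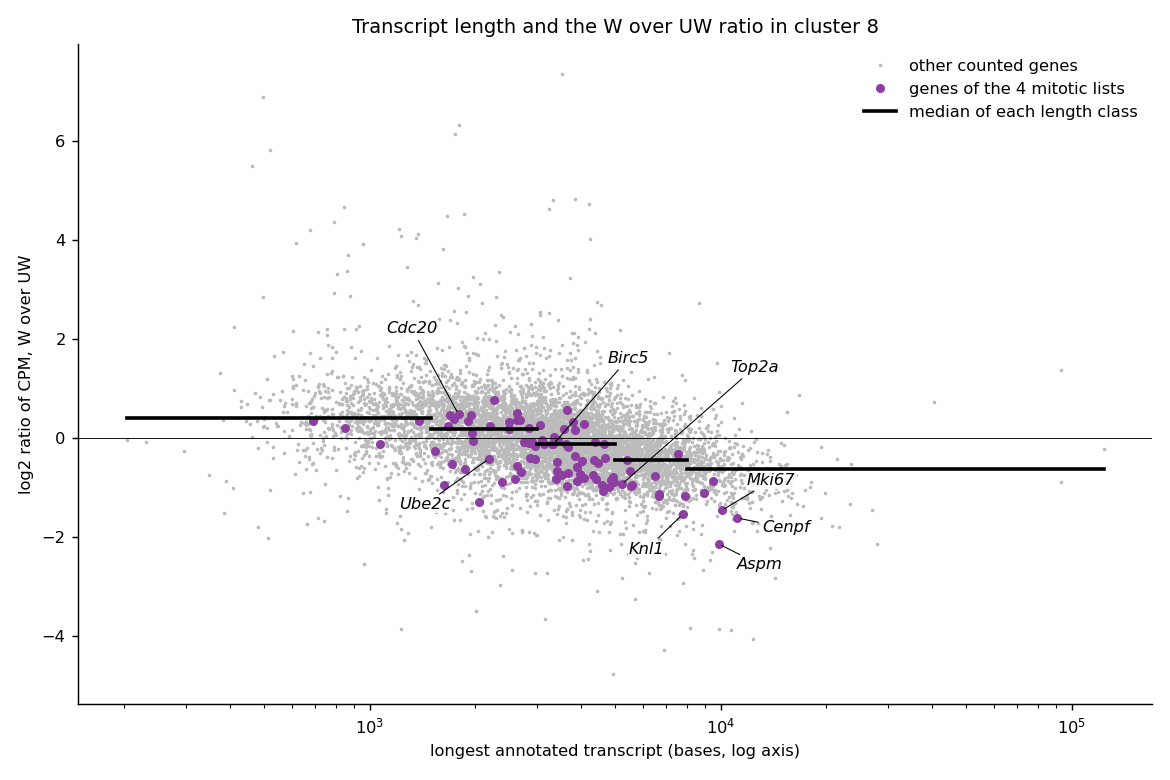
Log2 ratio of CPM, W over UW, in cluster 8 (y) against the longest annotated transcript of each gene in bases (x, logarithmic), with the 93 mitotic genes in purple and a black line at the median of each of 5 length classes. The class medians go down from 0.40 to -0.63 with length, and most mitotic genes of over 3000 bases lie below the line of their class.

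Split by phase, the median ratio of the mitotic genes was below 0 in G2/M cells and above 0 in S cells. In G2/M cells 32 of 93 were at least 2-fold lower in W and 0 higher, with a median of -0.68 (all counted genes: 8.51% lower, 5.53% higher, median -0.10). In S cells 14 of 88 counted were at least 2-fold higher in W and 0 lower, with a median of 0.29 (all counted genes: 6.91% higher, 7.39% lower, median -0.00). *Top2a* was at 274 CPM in S cells and 754 in G2/M cells of UW, and at 295 and 274 in those of W, so that in W its level no longer differed 2-fold between phases. *Mki67* went from 191 to 733 CPM in UW and from 151 to 201 in W. *Ube2c* went from 45.5 to 777 CPM in UW and from 108 to 486 in W. For *Ccnb1* the levels were 11 and 146 CPM in UW and 43.4 and 133 in W, and for *Cdc20* 15.2 and 256 in UW and 58.1 and 299 in W. In S cells the log2 ratio of W over UW was 1.98 for *Ccnb1* and 1.94 for *Cdc20*, and in G2/M cells it was -0.13 and 0.23. Over all 93 genes the median log2 ratio of G2/M over S cells was 1.48 in UW and 0.43 in W. The phase calls used many of these genes. The counts and ratios of W over UW within each phase, and the ratio of G2/M over S, are therefore descriptions. They were not centred by transcript length, and the levels of free RNA given above moved with the library.

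Outside the cluster the markers differed the other way. In cluster 3 *Top2a* was at 2.87 CPM in UW and 7.13 in W and *Birc5* at 1.92 and 34, and in cluster 11 they were at 20.8 and 40.7 and at 3.46 and 47.1. In stromal cells *Birc5* likewise was at 1.69 and 7.61 CPM and *Top2a* at 3.23 and 4.62, so *Top2a* of cluster 3 in UW was below that background. The difference between the clusters has no test with 1 library per condition.

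Replication genes were about level between the libraries at the median. The 35 counted had a median log2 ratio of -0.10, which TMM scaling turned to 0.01 and G2/M cells alone to 0.13, and 0 were at least 2-fold higher in W. The helicase subunit *Mcm5* was at 68.1 CPM in UW and 83.9 in W, and the clamp *Pcna* at 89.6 and 77. Of the 13 counted histone genes 2 were at least 2-fold higher and 2 lower, but 3 were under 10 CPM in UW and passed the filter only through W. Among the 10 at 10 CPM or more in both libraries 1 was higher and 2 were lower, and after centring within length classes 0 of the 13 were higher and 3 lower. Linker histone *Hist1h1b* was at 216 and 309.9 CPM but had a ratio of -0.22 in G2/M cells, *Hist1h3c* at 6.41 and 15.2, and *Hist1h2ap* at 87.2 and 24.8. Histone messages mostly lack poly(A) tails, and the libraries capture poly(A) RNA.

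Among 18 counted genes of G1 and CDK inhibition, 0 were at least 2-fold higher in W and 3 were lower, against 5.42% and 7.31% of all counted genes, with a median of -0.26. After centring within length classes 1 was higher and 2 were lower. *Cdkn1a*, the p21 inhibitor, was at 524 CPM (512 to 537) in UW and 209.9 (206 to 214) in W (-1.32). The retinoblastoma gene *Rb1* was at 52.4 and 15.9 CPM and cyclin D2, *Ccnd2*, at 260.2 and 126 (-1.04, and -0.60 after centring). The 11 counted p53 targets showed no common direction, with a median of 0.08 and *Cdkn1a* alone 2-fold apart. Of 13 counted spindle orientation genes 1 was at least 2-fold lower, near the 7.31% of all counted genes, and the median was -0.43. It was the dynein heavy chain *Dync1h1* (-1.01), whose long transcript put it at -0.38 after centring, within 2-fold.

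The keratin make-up of the dividing cells differed between the libraries. *Krt14*, the basal keratin, was at 2378 CPM in UW and 12454 in W (2.39, 2.37 to 2.41), while its partner *Krt5* was at 5329 and 5579. *Krt12*, the keratin of corneal epithelium, was at 17345 and 7860.4 CPM (-1.14). In thinned cells *Krt14* gave a median of 9.5 UMIs per cell in UW, with the 5th and 95th percentiles at 0 and 33, and of 59 in W, with 30 and 102, so that the bulk of the cells hardly overlapped. *Krt12* gave a median of 88 UMIs (29.5 to 146) in UW and 40 (2 to 97) in W. The shift in *Krt14* was not special to dividing cells, as cluster 3 had log2 ratios of 3.48 for *Krt14* and cluster 11 of 3.03. In stromal cells *Krt14* was at 57.4 CPM in UW and 821 in W, a background that was below 10% of the level in cluster 8 in both libraries.

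Across UW cells *Krt14* and *Krt12* ran against each other, with a Spearman's rho of -0.52 over 510 thinned cells. Across the 1313 W cells rho was -0.02. *Krt6a*, a keratin of activated epithelium, showed the reverse, with a rho with *Krt12* of 0.07 in UW and 0.54 in W.

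**Figure D5:**
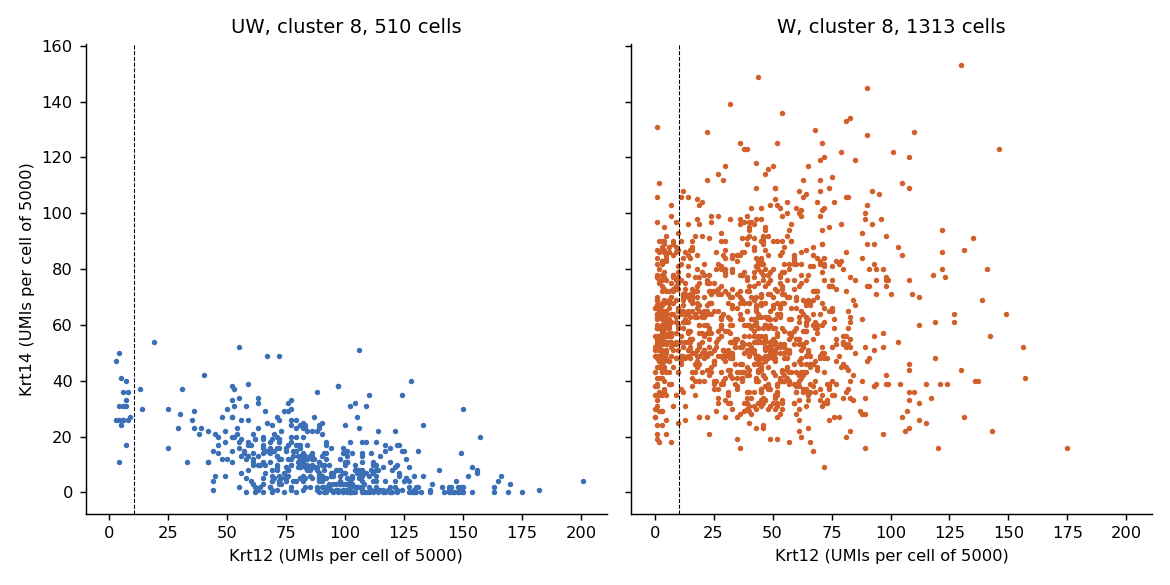
Krt12 (x) and Krt14 (y) UMIs of each cluster 8 cell after thinning to 5000 UMIs, UW on the left and W on the right, with a dashed line above 10 Krt12 UMIs. UW cells fall along a slope from low Krt12 and high Krt14 to the opposite, and W cells lie above nearly all of them on the Krt14 axis at every Krt12 level, with a dense strip left of the line.

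Some dividing cells had almost no *Krt12*. At 10 or fewer *Krt12* UMIs per thinned cell, a limit set after the values were seen, there were 20 of 510 UW cells (3.92%, 2.41 to 5.99) and 270 of 1313 W cells (20.6%, 18.4 to 22.9). Near the limit, at 8 to 12 UMIs, were 3 UW and 72 W cells. Stromal cells had a median of 8 *Krt12* UMIs in UW and 3 in W, so the low cells were near the level of free RNA in both libraries, and that level was lower in W. In the basal cluster 3 the share was 0 of 1708 cells in UW, which allows up to 0.176%, and 2.54% in W, and in cluster 11 it was 0 of 600, which allows up to 0.5%, and 2.70%. Cluster 9 had 48.5% and 87.7% such cells, and cluster 5 67.3% and 76.1%.

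Several limbal and conjunctival genes were higher in the low cells. In W, 6 of the 12 limbal genes were at least 2-fold higher in the low cells than in the others and 0 lower, with 6 on either side of an equal level, against 2.38% of all genes at a mean of 10 CPM or more higher and 3.26% lower. In UW, where there were 20 low cells, 5 of 11 such limbal genes were higher and 0 lower, against 8.81% and 7.24% of all. Of the conjunctival genes past that filter, 5 of 8 were higher and 1 lower in UW, and 2 of 7 higher and 1 lower in W. *Krt15*, a keratin of limbal basal cells, was at 6465 CPM in the 20 low cells and 465 in the other cells of UW, and at 3661 and 1138 in W. *Gpha2*, a marker of quiescent limbal stem cells, was at 641 and 56.8 CPM in UW and at 783 and 149 in W, but at 821 and 4206 in stromal cells. *Wfdc18* was at 226 CPM in the low cells of UW with no UMI in the other cells, which allows up to 0.245 CPM, and at 139 and 12.2 in W. *Krt17* was at 2592 and 159 CPM in UW and at 1962 and 569 in W. The conjunctival keratin *Krt4* was at 197 and 17.1 CPM in UW and at 287 and 50.4 in W, and *Pax6*, the eye field factor, was about level between them, at 229 and 267 in W. *Krt6a* went the other way in W, at 785 CPM in the low cells and 2439 in the others. As cells were sorted by *Krt12*, and the genes were read in those same cells, these values are descriptions. Mitotic genes were present in the low cells too. *Top2a* was at 1008 CPM in the low cells and 518 in the others of UW, and at 423 and 237 in W. In UW 85% of the low cells and 53.9% of the others were called G2/M, and in W 59.6% and 71.2%, so that the low cells had the higher share in UW and the lower in W.

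The share of cells with a UMI has to be read against free RNA for these genes. After thinning, *Gpha2* had a UMI in 21% of UW and 48.4% of W cluster 8 cells (49.2% and 89.7% with all UMIs) but in 60.2% and 86.5% of stromal cells, so its shares are read neither as expression nor as a difference. Whether stromal cells make this RNA themselves was not tested. *Krt4* had a UMI in 10.8% and 29.1% of cluster 8 cells (29.3% and 75.6%) and in 6.69% and 17.9% of stromal cells.

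The limbal genes had no common direction between the libraries. Of 12, 6 were at least 2-fold higher in W (2 of them under 10 CPM in UW) and 1 lower, with 6 on either side of 0 and a median of 0.60, which was -0.10 in G2/M cells alone. *Ifitm3*, also an interferon gene, was at 116 CPM in UW and 2136 in W, *Dlk2* at 2.58 and 21.1, and *Socs3*, the cytokine signalling inhibitor, was the lower one at 286 and 44.7. In stromal cells *Ifitm3* was at 967 and 5567 CPM and *Socs3* at 466 and 184, both above cluster 8 in each library. The part of free RNA in these values was not tested. Of 7 counted conjunctival genes 5 were at least 2-fold higher and 0 lower, but 3 passed the filter only through W, and of all 9 in the list 6 were above and 3 below their UW level. *Krt19* was at 7.5 and 39.8 CPM, *Krt4* at 24.1 and 105, and *Krt13* at 101 and 279, while in stromal cells *Krt13* was at 117 and 159.

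Most counted differentiation genes were lower in the dividing cells of W. Of 20 listed, 13 were counted, 11 of them at least 2-fold lower and 0 higher, against 7.31% and 5.42% of all counted genes. After centring within length classes 9 of the 13 were at least 2-fold lower and 0 higher. Among the 10 at 10 CPM or more in both libraries 8 were at least 2-fold lower, and of all 20 the level was lower in W for 14 and higher for 6. *Dsg1a*, a desmosomal cadherin of upper layers, was at 121 CPM in UW and 12.7 in W (-3.25), *Pygl*, glycogen phosphorylase, had a ratio of -3.66, and *Lypd2* was at 3747 and 918 (-2.03). The corneal crystallins *Aldh3a1* and *Tkt* were at 8657 and 3805 and at 6211 and 2954 CPM. In thinned cells *Aldh3a1* gave 43 UMIs at the median in UW and 19 at that in W. The median of the 13 counted genes was -1.39 in cluster 8, -1.40 in cluster 3 and -1.61 in cluster 11. Among 15 basal genes the median was -0.20, with *Krt14* and *Krt15* (1.30) higher and *Dst*, the hemidesmosome linker (-1.34, and -0.72 after centring), lower.

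Genes of wounded skin and cornea were higher in the dividing cells of W. Of the 16 wound keratins and alarmins listed, 5 were below a mean of 10 CPM and 4 more were under 10 CPM in UW, so that they passed only through W, where they had to be higher. The other 7, at 10 CPM or more in both libraries, were at least 2-fold higher in W, and all 16 had the higher level in W, 2 of them with no UMI in UW. The alarmins *S100a8* and *S100a9* were at 2.11 and 6.88 CPM in UW and at 251 and 391 in W. *S100a8* had a UMI in 0.98% of UW and 40.3% of W cells after thinning (1.68% and 69.6% with all UMIs), against 0.216% and 14.4% of stromal cells. Both are also leading genes of neutrophils, and in stromal cells *S100a8* was at 0.352 CPM in UW and 46 in W. The part of free RNA in these values was not tested. *Fabp5*, a fatty acid carrier of activated keratinocytes, was at 314 CPM in UW and 7745 in W (4.62, 4.58 to 4.67), with 34.8 and 595 in stromal cells. *Krt6a* was at 366 and 2059.8 CPM, *Krt16* at 987 and 2370.2, and *Sprr1a*, a cornified envelope precursor, at 5.39 and 53.7.

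Of 20 interferon genes listed, 16 were counted, 11 of them at least 2-fold higher in W and 0 lower, against 5.42% and 7.31% of all counted genes. Their median log2 ratio was 2.10 in cluster 8, 3.14 in cluster 3, 2.16 in cluster 11 and 1.11 in the other epithelial cells. As 6 passed the filter only through W, the count among the 10 at 10 CPM or more in both libraries was 5 higher and 0 lower, and of all 20 the level was higher in W for 18. *Ifi27l2a* was at 13.5 CPM in UW and 614 in W (5.50), *Bst2*, the tetherin gene, at 5.55 and 114 (4.35), and *Isg15* at 10.3 and 43.3. *Ifi27l2a* and *Bst2* were higher in stromal cells than in cluster 8 in both libraries, at 1375 and 917 CPM in W. The transcription factor *Irf1* (-0.95) went the other way without reaching 2-fold. Among the 12 highest ratios at 50 CPM or more were *H2-Q7*, a class I histocompatibility gene, at 3.75 and 99.9 CPM, *B2m*, which encodes beta-2 microglobulin, at 66 and 687, and the immunoproteasome subunit *Psmb8* at 28.7 and 210.0. In stromal cells *H2-Q7* was at 0.809 and 62.5 CPM, *B2m* at 618 and 1909, and *Psmb8* at 21.4 and 191. *Ly6a* was at 50.5 and 768 CPM and *BC100530*, a stefin gene, at 167 and 2549.

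Among signals, *Areg*, a ligand of the EGF receptor, was at 14.7 CPM (12.7 to 16.9) in UW and 272 (268 to 277) in W (4.21), against 9.95 and 44.4 in stromal cells. *Tgfa* (4.92 and 15.4 CPM) and *Epgn* (36.3 and 82.5) were the other 2 of 9 counted genes at least 2-fold higher, *Tgfa* having passed the filter only through W. Among the 8 genes at 10 CPM or more in both libraries 2 were higher. The receptor gene *Egfr* (98.7 and 45.6 CPM, -1.12) was the 1 lower, and centring within length classes put it at -0.49, within 2-fold. Centring also put *Epgn* at 0.998, just within 2-fold, which left 2 of the 9 higher and 0 lower. Of 20 cytokine genes 13 were below the filter, and of the 7 counted, 2 of them under 10 CPM in UW, 4 were higher, *Cxcl2* (3.11), *Ptgs2* (2.74), *Tslp* (1.85) and *Il1a* (1.71), and *Cxcl10* (-1.91) was lower. Of 12 counted migration and matrix genes 2 were higher, both under 10 CPM in UW, and 2 lower, with *Mmp3* at 0.86 and 69.1 CPM but at 4515 in W stromal cells, and fibronectin, *Fn1*, at 103 and 21.2. The study named 5 transcription factors as examples of its top up-regulated ones. Of these, *Irf7* (8.83 and 50.8 CPM), *Elk3* (7.82 and 36.2) and *Creb5* (46.7 and 105) were at least 2-fold higher, and *Klf7* (0.44) and *Fosl1* (-0.32) were not. *Irf7* and *Elk3* passed the filter only through W, and of the 3 factors at 10 CPM or more in both libraries 1 was higher. The study chose these factors on the same libraries, so their direction is no independent evidence.

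Clock genes, which follow the time of day, were lower in W for most members. Of 14 clock genes counted, 9 were at least 2-fold lower and 0 higher, against 7.31% of all counted genes lower. Of the 11 at 10 CPM or more in both libraries 7 were lower and 0 higher. *Dbp* was at 204 CPM in UW and 36.3 in W, *Hlf* at 552 and 114, *Ciart* at 35.1 and 5.46, and *Nr1d1* at 379 and 102. Genes that can respond to the handling of cells differed by list. Of 17 AP-1 and immediate early genes, 15 were below and 2 above 0 with a median of -0.72, and 5 were at least 2-fold lower and 0 higher, among them *Jund* (-1.26) and *Fos* (-1.19), against 7.31% of all counted genes at least 2-fold lower. Of 12 heat shock genes 3 were at least 2-fold lower, against the same 7.31%, namely *Hspa1b* (-1.50), *Dnajb1* (-1.28) and *Hspa1a* (-1.02). The median was -0.02, with 6 genes on either side of 0. The hour of collection is not given in the sources used here, so the time of day and the wound cannot be told apart for the clock genes.

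Most glycolysis genes were higher in W. Of 15 counted glycolysis genes, 9 were at least 2-fold higher and 1 lower, against 5.42% and 7.31% of all counted genes. Of the 15, 1 was under 10 CPM in UW and 1 in W. Among the 13 at 10 CPM or more in both libraries 8 were higher and 0 lower. Aldolase, *Aldoa*, was at 66.6 CPM in UW and 318 in W, with log2 ratios of 2.26 here, 1.32 in cluster 3 and 1.21 in cluster 11. The level was for *Tpi1* 113 and 385 CPM, for *Pkm* 261 and 880.4, and for *Pfkfb3*, the lower one, 23.8 and 6.41. Of 19 ribosome biogenesis genes, 4 were at least 2-fold higher and 0 lower, against the same shares of all counted genes, with a median of 0.45. They were led by the nucleolar protein *Npm1* at 454 and 1264 CPM and *Rrs1* at 26.6 and 58. After centring within transcript length classes 8 glycolysis and 2 ribosome biogenesis genes were at least 2-fold higher.

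The lowest ratios at 50 CPM or more belonged to *Ces1d*, a carboxylesterase, at 126 CPM in UW and 11.1 in W (-3.50, -3.65 to -3.36), followed by *Dsg1a*, the retinaldehyde dehydrogenase *Aldh1a1* (109 and 13.8), *Cyp3a13* (120.2 and 18.1) and *Socs3*. *Gyg*, glycogenin, was at 356 and 69.4 CPM, *Ahnak2* at 117 and 23.1, *Myo6* at 186 and 42.2 and *Asph* at 227 and 55.1. For *Ces1d* the ratio was -3.55 in cluster 3 and -3.62 in cluster 11, near the -3.50 of cluster 8.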

How the data were processed

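Cells of the mouse cornea were measured by droplet single-cell RNA-seq in 1 UW and 1 W library. UMIs were counted by the authors in Cell Ranger 3.1.0. They filtered cells by detected genes and mitochondrial share, left out called doublets and cells showing dissociation stress genes, and clustered the rest in Seurat after integrating both libraries. The deposited counts were not normalized. The build is mm10 in the paper and mm9 in the labels of the samples, and the kit is version 2 in the paper and version 3 in the labels. The deposited cell table gave the cluster, UMI total and first doublet call of each cell. The paper's cell classes were not used here.

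Counts were summed over cluster 8 per library, read with Python 3.11.15, pandas 2.3.3, numpy 2.4.6 and scipy 1.17.1. Genes at a mean of at least 10 CPM were counted, and a call means at least 2-fold. Every log2 ratio is that of CPM, with no pseudocount and an exact conditional binomial interval, and shares have exact Clopper-Pearson intervals at 95%. With 1 library per condition there was no test. Phases were scored in scanpy 1.11.5 over epithelial cells of both libraries (clusters 1 to 9 and 11), each thinned to 5000 UMIs. Alternatives used TMM factors (edgeR 4.0.16), median-of-ratios size factors (DESeq2 1.42.0), other filters, other phase scorings and other sets of cells. In simulated sums, 200 of 200 genes changed 4-fold were recovered and 0 unchanged genes were called. As 4-fold is well above the 2-fold call, this checked the calculation only. Transcript lengths and positions are from GENCODE M21 (GRCm38), which held 19908 of 20198 genes by symbol, and promoters from RefSeq (GRCm38.p6).

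The members and the gene lists were chosen with earlier results of these data known. Named were the 5 markers, the 10 leading genes, the 12 highest and 12 lowest ratios at 50 CPM or more (without mitochondrial, haemoglobin and ribosomal protein genes) and, from each list, the 3 highest and 3 lowest and the genes that define it. The length classes, the *Krt12* limit, the promoter set, the genes read in *Krt12*-low cells and other list members were chosen after values were seen. A result among the replication genes is not reported here.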

Additional observations from a re-analysis of the deposited data

Results flagged for a closer look

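The ratio of *Mki67* had opposite signs in neighbouring clusters. In cluster 8 the single UW and the single W library gave a log2 ratio of W over UW of -1.47, while the ratio was 1.04 in the basal cluster 3 and 2.01 in cluster 11. From UW to W the *Mki67* level went from 504 to 183 CPM in cluster 8. It went from 6.74 to 13.9 CPM in cluster 3 and from 4.92 to 19.8 in cluster 11. Stromal cells, the measure of background, went from 2.04 to 2.87 CPM. The ratios of clusters 3 and 11 thus rest on levels closer to that background than to cluster 8. The part of free RNA in them was not tested, nor was the difference between the clusters.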

How the results depend on the processing

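No paired analysis was possible because each condition had 1 library. In G2/M cells alone the log2 ratio of *Ccnb1* turned from 0.18 to -0.13, that of *Plk1* from 0.23 to -0.05, that of *Aurka* from 0.34 to -0.03 and that of *Hist1h1b* from 0.52 to -0.22, and the cause was not tested. Of 414 counted genes of the lists or named, 27 turned there, 19 under TMM factors and 47 when ratios were centred by transcript length (*Krt5* from 0.07 to -0.12), 0 of them 2-fold apart. Without the filter on low values 1530 of 15361 genes were at least 2-fold higher in W and 2122 lower. The share of cluster 8 was 7.47 percentage points higher in W as a share of the library, 11.7 points as a share of epithelial cells, and 6.66 points for epithelial cells with at least 5 marker UMIs. The G2/M share was 13.8 points higher in W, and 23.8 points with cluster 11 added. Centring ratios within 5 transcript length classes, chosen after seeing the data, gave 359 genes higher and 354 lower in place of 408 and 550, and fewer genes were tested (7470). Leaving out cells with stromal or immune markers, also chosen after seeing the data, gave 408 and 537. The other settings left the counts within 1.5 times. Among 43 named genes, 15 to 41 kept their ratio within its counting interval, depending on the setting. The depth of 12795601 UMIs in UW limits genes below 10 CPM, and the spread between mice is unknown.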
